A study of Mus musculus with 18 samples.

Results

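*Runx1*, *Runx2* and *Runx3* encode the DNA-binding subunits of core-binding factor, and *Cbfb* encodes the partner subunit that all of them share. These 4 genes were examined by taking every region of the deposited methylation tables that overlapped a gene body or the 5 kb on either side of it. They held 278 of the 411770 listed regions of splenic CD11b+ cells and 386 of the 553467 listed regions of splenic CD4+ cells, 664 of 965237 in all. In CD11b+ cells, 124 regions belonged to *Runx1*, 106 to *Runx2*, 37 to *Runx3* and 11 to *Cbfb*. In CD4+ cells, the numbers were 157, 159, 56 and 14.

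Whole-genome bisulfite sequencing (WGBS) was performed on cells from 4 wild-type (WT) and 4 Dnmt3aR878H/+ mice per cell type. DNMT3A is a DNA methyltransferase that adds methyl groups to unmethylated CpG sites, and R878H is the mouse counterpart of a mutation that is common in human clonal hematopoiesis. The mutant mice carried 1 conditional R878H allele recombined by Vav1-iCre, which is active in blood cells from early development, so the mutation was present in both cell types. The controls, labelled Dnmt3a+/+, were either Cre-positive mice without the allele or Cre-negative mice with the unrecombined allele, according to the study's methods. The labels give no age, and the methods describe young adult mice matched for age and sex. CD11b is an integrin of monocytes, macrophages and neutrophils, and CD4 marks helper and regulatory T cells. Cells were enriched on magnetic beads, CD4+ cells after the removal of CD11b+ cells. The 4 Dnmt3aR878H/+ mice have 6 entries for CD11b+ cells in the labels, because replicates 3 and 4 are entered a second time.

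All values below are the authors' means of a genotype in percent methylation. The study's methods state a nominal sequencing coverage, but the tables hold neither values of single mice nor read depths per region. The coverage behind a given mean is therefore unknown, no mean has an error, and no difference could be tested against the spread between mice. The tables also do not name their groups. The first mean was read as WT because the published density curves show WT as the more methylated genotype, and every direction given here rests on that reading. The tables list regions with at least 10 CpG cytosines, counted on both strands. In CD11b+ cells, they contain 33.8% of the CpG dinucleotides of the *Runx1* window, 24.2% for *Runx2*, 31.1% for *Runx3* and 12.9% for *Cbfb*. In CD4+ cells, these shares are 38.2%, 34.3%, 44.7% and 12.0%. A listed region with more than 10 CpG cytosines, a q-value below 0.05 and means that differ by over 20 percentage points is called a differentially methylated region (DMR). These are the study's criteria, applied to the tables' own counts. The study's methods speak of CpGs, and if CpG dinucleotides were meant, a limit of about 20 cytosines would be the nearer one. With more than 20, the DMRs of *Runx2* in CD4+ cells numbered 2 in place of 6 and those of *Runx3* in CD11b+ cells 3 in place of 5.

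RUNX proteins bind DNA through their Runt domain and recruit coactivators or corepressors, and CBFB raises their affinity for DNA without binding it. RUNX1 is required for the emergence of blood stem cells and acts in megakaryocytes, myeloid cells and lymphocytes. RUNX3 takes part in the choice between the CD4 and CD8 lineages and in cytotoxic and innate lymphocytes, and RUNX2 is best known as the master regulator of osteoblasts. Each Runx gene is read from a distal promoter (P1) and a proximal promoter (P2), which give proteins with different first residues, and P2 lies in a CpG island. *Cbfb* has 1 promoter. P1 and P2 were placed on the annotated starts of each gene, and a promoter window reached 1 kb to each side of its starts.

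On the mm10 genome, *Runx1* (ENSMUSG00000022952.17) lies on the minus strand of chromosome 16 from 92601466 to 92826149, with P1 at 92826149 and P2 at 92697328. *Runx2* (ENSMUSG00000039153.16) lies on the minus strand of chromosome 17 from 44495987 to 44814797, with P1 at 44814797 and P2 at 44736648. *Supt3* overlaps its P1 end on the opposite strand. *Runx3* (ENSMUSG00000070691.10) lies on the plus strand of chromosome 4 from 135120652 to 135177990, with P1 at 135120652 and P2 at 135152496. *Cbfb* (ENSMUSG00000031885.14) lies on the plus strand of chromosome 8 from 105170674 to 105217989. The P2 windows held 5.8, 6.3 and 8.8 CpG dinucleotides per 100 bp in *Runx1*, *Runx2* and *Runx3*, against 2.0, 1.2 and 2.2 in the P1 windows. The *Cbfb* promoter window held 8.1.

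The sequences that follow are some of those at which large differences were found. The first are the central 300 bases of the *Runx3* DMRs on either side of P2, upstream (chr4:135151217-135151516) and downstream (chr4:135154982-135155281), followed by the *Runx2* intronic DMR with the largest loss in that gene (chr17:44613711-44614010). These 3 windows are shown on the plus strand of mm10. The last is the RefSeq promoter of *Runx1* P2 (chr16:92697330-92697579, GRCm38.p6), shown on the minus strand in the direction of transcription, whose downstream end lies in the region with the largest gain. Capitals mark the CpG dinucleotides, the sites at which methylation was measured.
Runx3 upstream of P2: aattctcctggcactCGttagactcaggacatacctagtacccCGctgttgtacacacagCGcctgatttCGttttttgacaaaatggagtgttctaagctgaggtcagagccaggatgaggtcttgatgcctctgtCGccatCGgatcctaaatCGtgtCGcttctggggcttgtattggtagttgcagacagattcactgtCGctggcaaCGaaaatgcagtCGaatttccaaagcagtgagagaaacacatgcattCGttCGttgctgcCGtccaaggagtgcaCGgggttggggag
Runx3 downstream of P2: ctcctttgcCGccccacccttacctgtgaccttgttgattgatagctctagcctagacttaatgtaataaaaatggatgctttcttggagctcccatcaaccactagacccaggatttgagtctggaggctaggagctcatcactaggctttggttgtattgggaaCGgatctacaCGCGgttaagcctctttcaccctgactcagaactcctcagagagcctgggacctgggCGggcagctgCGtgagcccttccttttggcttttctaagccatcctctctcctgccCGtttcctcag
Runx2 intron: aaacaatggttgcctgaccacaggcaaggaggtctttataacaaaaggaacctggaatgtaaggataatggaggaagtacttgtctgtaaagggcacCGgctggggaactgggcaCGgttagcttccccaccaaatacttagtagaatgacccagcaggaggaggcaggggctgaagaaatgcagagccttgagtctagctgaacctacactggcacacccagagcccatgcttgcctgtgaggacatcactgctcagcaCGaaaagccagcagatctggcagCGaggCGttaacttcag
Runx1 P2 promoter: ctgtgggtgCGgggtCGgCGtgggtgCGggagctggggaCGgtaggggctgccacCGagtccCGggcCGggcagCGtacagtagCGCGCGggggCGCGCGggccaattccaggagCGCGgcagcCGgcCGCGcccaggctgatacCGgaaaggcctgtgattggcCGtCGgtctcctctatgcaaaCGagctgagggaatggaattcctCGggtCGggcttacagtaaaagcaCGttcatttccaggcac

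The *Runx3* windows contain 15 and 7 CpG dinucleotides, the *Runx2* window 5 and the *Runx1* P2 promoter 27. Listed regions of both tables had a median of 4 CpG dinucleotides in windows of 300 bases. Over all DMRs of the 4 genes the median was 11 for CD11b+ and 7 for CD4+ cells. A DMR needs more than 10 CpG cytosines and a listed region at least 10, so these sets differ by definition. The *Runx1* P2 promoter is 250 bases long, and RefSeq promoters of that length had a median of 6 CpG dinucleotides. A search on both strands for the core RUNX motif TGTGGT found it in 1 of 10 DMR windows in CD11b+ cells (10.0%, against 21.7% of all listed windows) and in 2 of 12 in CD4+ cells (16.7%, against 22.0%). One of these is the *Runx2* window above, which reads ACCACA on the plus strand. Of the 250 bases upstream of the RefSeq starts, the motif occurred 2 times in *Runx3* P1 and 1 time in *Runx2* P1, and these letters were not in the windows of *Runx1* P1, *Runx1* P2, *Runx3* P2 and *Cbfb*. It occurred in 14.0% of 32851 RefSeq promoters.

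*Runx3* lost the most methylation of the 4 genes in both cell types. In CD11b+ cells, the median methylation of its regions was 77.4% in WT and 55.4% in Dnmt3aR878H/+ mice, and the median loss per region was 15.7 percentage points (interquartile range over regions 8.59 to 22.75). In CD4+ cells, the medians were 82.7% and 64.4%, and the median loss was 14.53 points. The whole tables had median losses of 6.55 points (CD11b+) and 6.85 points (CD4+).

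*Runx1* and *Runx2* lay between these levels. *Runx1* had medians of 84.5% in WT and 72.5% in Dnmt3aR878H/+ CD11b+ cells (median loss 9.34 points), and of 90.1% and 81.4% in CD4+ cells (7.72 points). *Runx2* had medians of 87.1% and 77.3% in CD11b+ cells (8.94 points) and of 91.5% and 81.4% in CD4+ cells (8.85 points). *Cbfb* stayed close to the level of the whole tables, at 94.3% and 88.8% in CD11b+ cells (7.21 points) and at 94.0% and 90.4% in CD4+ cells (4.63 points).

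The Dnmt3aR878H/+ mean was the lower one in nearly every region of the family, as it was in the tables as a whole. In CD11b+ cells this held for 92.7% of 124 regions of *Runx1*, 100 of 106 of *Runx2*, 34 of 37 of *Runx3* and 11 of 11 of *Cbfb*, against 93.4% of all listed regions. In CD4+ cells it held for 145 of 157, 157 of 159, 56 of 56 and 12 of 14, against 95.5%. Within *Runx3*, the largest loss of a single region in CD11b+ cells was 53.0 points, and within *Runx2* the largest in CD4+ cells was 44.1 points.

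**Figure D1:**
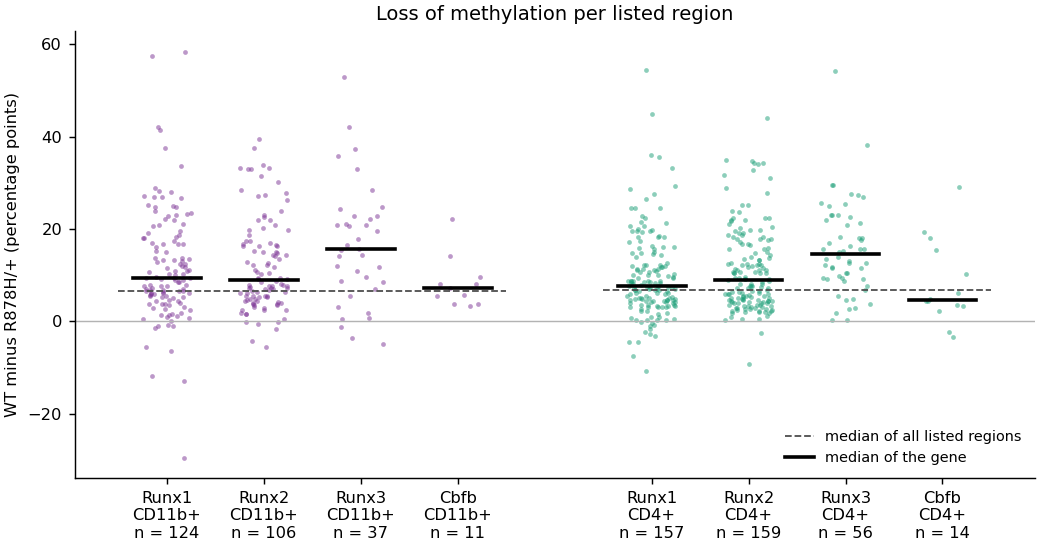
Each point is a listed region, and the vertical axis gives its loss of methylation, WT minus Dnmt3aR878H/+, in percentage points for CD11b+ cells (left) and CD4+ cells (right). Solid bars are the medians of each gene and dashed lines the medians over all listed regions, 6.55 and 6.85 points. *Runx3* stands highest with 15.7 and 14.53 points, and the lowest point, at -29.6 points, is a *Runx1* region of CD11b+ cells.

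The DMRs of the Runx genes were all hypomethylated in Dnmt3aR878H/+ cells. In CD11b+ cells, *Runx1* had 5 DMRs among its 124 regions (4.03%), *Runx3* had 5 among 37 (13.5%), and *Runx2* and *Cbfb* had 0. Hypomethylated DMRs made up 0.576% of all listed regions of CD11b+ cells. In CD4+ cells, *Runx1* had 5 (3.18%), *Runx2* 6 (3.77%), *Runx3* 1 (1.79%) and *Cbfb* 0, where 0.665% of all listed regions were hypomethylated DMRs. The share of hypermethylated DMRs in the tables was 0.0126% for CD11b+ cells and 0.000542% for CD4+ cells, and the 4 genes had 0 in either.

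The q-value threshold set many of these counts. Without it, CD11b+ cells had 14 regions of *Runx1*, 7 of *Runx2* and 9 of *Runx3* with more than 10 CpG cytosines and a loss above 20 points, against 3.24% of all listed regions. CD4+ cells then had 14 of *Runx1*, 16 of *Runx2* and 5 of *Runx3*, against 3.08%. *Cbfb* had 0 in both. The absence of DMRs from *Runx2* in CD11b+ cells therefore rests on the q-value, and also on the limit of 20 points. With the q-value kept and a difference above 10 points, *Runx2* had 1 DMR in these cells. At one of the 6 *Runx2* DMRs of CD4+ cells, chr17:44670222-44670582, methylation was 79.9% in WT and 46.0% in Dnmt3aR878H/+ CD4+ cells. CD11b+ cells had 63.8% and 30.6% there, a loss of almost the same size that did not reach the q-value threshold.

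Downstream of *Runx1* P2, a run of DMRs began about 1 kb from the start and covered a further annotated start at 92695495. Another annotated start, at 92696125, lies nearer to P2, in a region that did not pass the q-value in either cell type. The CD11b+ DMR nearest to P2, chr16:92695709-92696075, overlaps an exon with untranslated sequence and had 84.5% in WT and 27.0% in Dnmt3aR878H/+ cells. The corresponding CD4+ DMR, chr16:92695764-92696081, had 84.6% and 39.6%. WT methylation was thus nearly equal in the cell types, and the Dnmt3aR878H/+ mean was 12.6 points lower in CD11b+ cells. The next CD11b+ DMR, chr16:92694007-92695671, had 77.7% and 43.9%. The CD4+ DMRs over this stretch had 86.2% and 53.1% (chr16:92694618-92695750) and 82.7% and 61.1% (chr16:92693299-92694583). Among these few DMRs the loss was smaller the farther they lay from P2, in both cell types. This order did not extend to the regions next to the run on the side of P2. They lost 26.8 points (CD11b+) and 22.7 points (CD4+), less than the DMRs beside them.

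The P2 island of *Runx1* itself did not follow its borders. In WT cells, its listed regions within the island were almost free of methylation, and in Dnmt3aR878H/+ CD11b+ cells they were higher. The region across the start, chr16:92697213-92697364, had 1.20% in WT and 30.8% in Dnmt3aR878H/+ CD11b+ cells over 14 CpG cytosines. This was the 1 region of the 4 genes with a gain above 20 points, and it did not pass the q-value. In the tables, 0.125% of CD11b+ regions and 0.00343% of CD4+ regions had more than 10 CpG cytosines and such a gain. Further into the gene, chr16:92696900-92696991 had 0.50% and 13.5%, chr16:92696823-92696899 had 1.25% and 6.81%, and chr16:92696613-92696822 had 0.75% and 12.7%.

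In CD4+ cells, 1 listed region lay in the same island, chr16:92696614-92696900, with 1.10% in WT and 0.75% in Dnmt3aR878H/+ cells. It lies over the CD11b+ regions chr16:92696613-92696822 and chr16:92696823-92696899 and ends at the first base of chr16:92696900-92696991. The stretch from there across the P2 start was not listed in CD4+ cells, so the largest gain has no counterpart to set beside it. At the downstream border of the island, chr16:92696081-92696361 had 90.8% and 64.0% in CD11b+ cells, and chr16:92696100-92696361 had 85.7% and 62.9% in CD4+ cells. The direction in CD11b+ cells thus changed between the island and its border.

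Gains at unmethylated regions were also seen elsewhere in the CD11b+ table. Among its 8415 listed regions with less than 10% methylation in WT, 46.1% had the higher mean in Dnmt3aR878H/+ mice and 23.8% gained more than 5 points. In CD4+ cells, 31.8% of 7855 such regions had the higher mean and 3.9% gained more than 5 points. Of the regions of the 4 genes with WT methylation under 10%, 5 of 9 were higher in Dnmt3aR878H/+ CD11b+ cells and 0 of 5 in CD4+ cells. Of these 5, 4 lay at *Runx1* P2 and 1 at *Runx2* P2. Whether read depth or the repeated entries of the Dnmt3aR878H/+ CD11b+ group had a part in this was not tested.

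**Figure D2:**
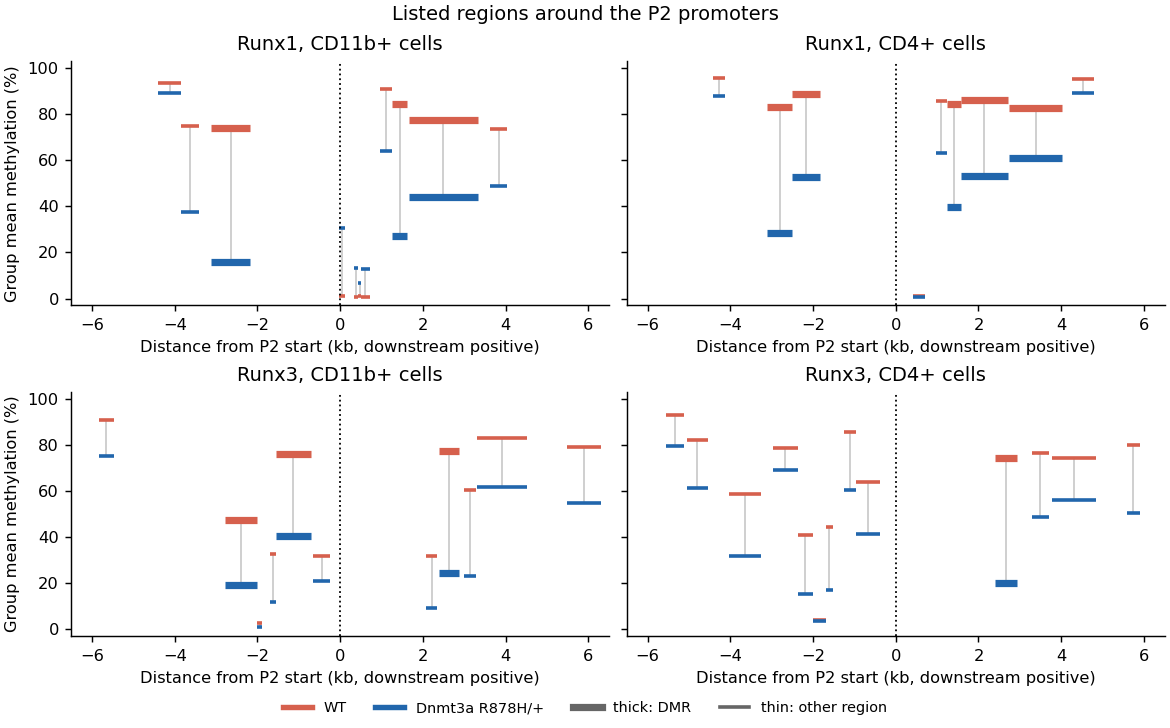
Group mean methylation in percent (vertical axis) of listed regions within 6 kb of the P2 start of *Runx1* and *Runx3* in both cell types, against distance from that start in kb, downstream positive. Each region is drawn at its width with the WT and Dnmt3aR878H/+ means, and thick lines are DMRs. Large losses flank P2 in each panel, and the gains at the *Runx1* P2 start, the largest from 1.20% to 30.8%, appear in CD11b+ cells.

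*Runx1* had other DMRs far from P2 in CD11b+ cells. One lay upstream of the gene, chr16:92830387-92830786, centred 4437 bp from the P1 start, with 74.1% in WT and 32.6% in Dnmt3aR878H/+ cells. CD4+ cells had 67.6% and 32.0% at the overlapping region, which did not pass the q-value. The other, chr16:92615382-92615736 in an intron 81.8 kb downstream of P2, had 59.96% and 31.7%. There CD4+ cells had 90.2% and 74.1%, so that this site was already less methylated in WT CD11b+ cells than in CD4+ cells of either genotype. The region of *Runx1* with the largest loss and no DMR call in CD11b+ cells, chr16:92762126-92762548, had 71.1% and 29.0%.

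*Runx3* resembled *Runx1* in the borders of its P2 island. Downstream of P2, chr4:135154894-135155368 had 77.4% in WT and 24.5% in Dnmt3aR878H/+ CD11b+ cells, and chr4:135154894-135155435 had 74.5% and 20.2% in CD4+ cells. These were the largest losses of the gene in both cell types, at regions that overlap an exon and are centred 2635 bp and 2668 bp from the start. This is the only DMR of *Runx3* in CD4+ cells.

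Upstream of *Runx3* P2, the CD11b+ DMR chr4:135150947-135151786 had 76.1% and 40.3% over 41 CpG cytosines. CD4+ cells had 85.6% and 60.6% at chr4:135151233-135151528 and 64.2% and 41.2% at chr4:135151535-135152111, losses above 20 points that did not pass the q-value. A second CD11b+ DMR on this side, chr4:135149702-135150482, had 47.6% and 19.3%, where CD4+ cells had 78.5% and 69.2% in the part farther from P2 and 40.8% and 15.2% in the part nearer to it. Between these DMRs lay a short region that was unmethylated in all groups, chr4:135150483-135150614, with 3.00% and 1.25% in CD11b+ cells, and chr4:135150483-135150804, with 3.91% and 3.70% in CD4+ cells.

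The other DMRs of *Runx3* lay in introns and were called in CD11b+ cells. The region chr4:135140328-135140590, 19.8 kb downstream of P1, had 58.7% and 16.7%. The overlapping region of CD4+ cells had 48.8% and 10.6%, a loss of 38.2 points over 10 CpG cytosines, which is 1 too few for a DMR. The region chr4:135166635-135166708 had 94.8% and 61.9% over 74 bp. In CD4+ cells, 71 of these bases fall at the end of a longer region of 862 bp with 87.4% and 75.8%. The other 3 lie in the next region, with 86.6% and 61.2%, so the means are not of the same bases.

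**Figure D3:**
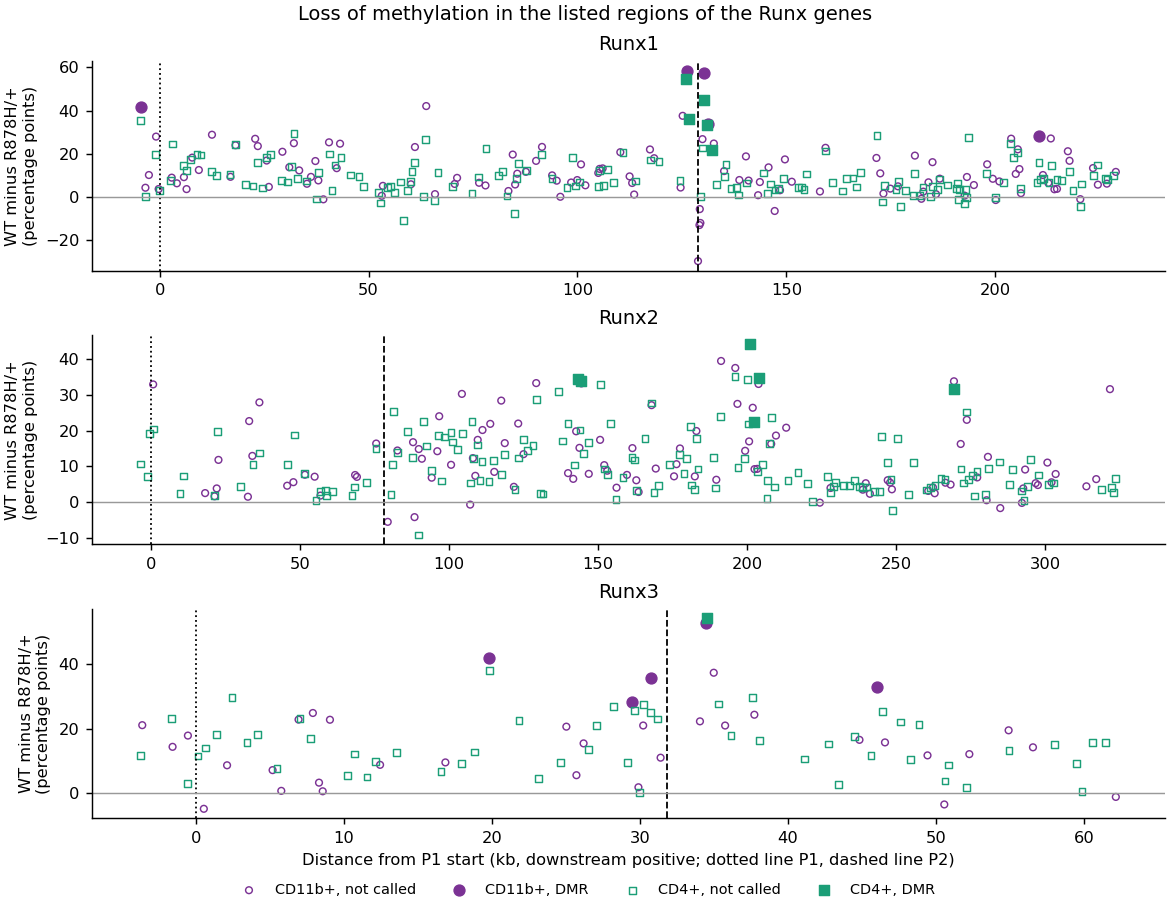
Loss of methylation in percentage points (vertical axis) of every listed region along *Runx1*, *Runx2* and *Runx3*, against distance from the P1 start in kb in the direction of transcription. Circles are CD11b+ cells, squares CD4+ cells, filled symbols DMRs, the dotted line P1 and the dashed line P2. DMRs gather at P2 of *Runx1* and *Runx3*, whereas those of *Runx2* lie between 143.2 and 269.4 kb from P1.

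*Runx2* differed from *Runx1* and *Runx3* in where its DMRs lay. The difference is one of called DMRs, because a large loss was also found near its P2. In CD4+ cells, chr17:44733133-44733589, centred 3287 bp downstream of P2, had 68.1% in WT and 42.9% in Dnmt3aR878H/+ cells and did not pass the q-value. The 6 DMRs of *Runx2* were all intronic, were called in CD4+ cells and stood 65.1 to 191.2 kb downstream of P2. The largest loss was at chr17:44613686-44614034, with 66.8% in WT and 22.7% in Dnmt3aR878H/+ CD4+ cells. CD11b+ cells were at 23.3% and 6.3% in a longer region that covers it. That region also takes in the stretch that follows, chr17:44614084-44614429, where CD4+ cells had 27.9% and 6.06%, so the means are not of the same bases. Close to it, chr17:44611931-44613258 had 81.7% and 59.3% and chr17:44610285-44611119 had 86.0% and 51.2% in CD4+ cells. CD11b+ cells had 68.2% and 35.2% at the region overlapping the second of these.

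A second pair of *Runx2* DMRs lay nearer to P2. Besides the region at 44670222 described above, chr17:44671040-44672154 had 66.3% and 31.9% in CD4+ cells, and the region of CD11b+ cells that overlaps it most had 45.0% and 25.2%. The last DMR, chr17:44545274-44545605, the farthest from P2, had 50.1% and 18.4% in CD4+ cells, and CD11b+ cells had 50.4% and 16.6% over 10 CpG cytosines. In CD11b+ cells, the largest loss of *Runx2* was at chr17:44623399-44623654, with 85.2% and 45.8% over 10 CpG cytosines. CD4+ cells had 80.4% and 56.5% in the wider region that holds it.

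Of the DMRs of the 3 Runx genes, 6 of 10 in CD11b+ cells and 6 of 12 in CD4+ cells were centred within 5 kb of a P2 start, where 8.6% and 6.7% of their listed regions lay. These shares count all listed regions, also those with 10 CpG cytosines, which cannot be DMRs. How often DMRs of other genes lie this close to a CpG-rich start was not examined, so the position cannot be called particular to the Runx genes. The 6 in CD11b+ cells were 3 of *Runx1* and 3 of *Runx3*, and the 6 in CD4+ cells were 5 of *Runx1* and 1 of *Runx3*. *Runx2* had 0 of its 6 DMRs there, and within that distance the tables list 3 of its regions (CD11b+) and 5 (CD4+).

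As a group, the DMRs of the family had a median of 75.1% in WT and 29.3% in Dnmt3aR878H/+ CD11b+ cells, and of 82.2% and 42.8% in CD4+ cells. All hypomethylated DMRs of the tables had medians of 68.9% and 30.2% in CD11b+ cells and of 76.0% and 40.2% in CD4+ cells. Of the 10 DMRs of CD11b+ cells, 4 overlapped a DMR of CD4+ cells and 9 overlapped a CD4+ region with a loss above 20 points, against 54.4% and 88.1% of all 2370 hypomethylated DMRs of that table. Of the 12 DMRs of CD4+ cells, 6 overlapped a DMR of CD11b+ cells and 10 a CD11b+ region with a loss above 20 points, against 35.3% and 74.9% of all 3683. Here short overlaps counted, as did regions with 10 CpG cytosines. Among the 9, the *Runx3* DMR chr4:135166635-135166708 overlapped such a region by 3 bp.

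The promoters were compared by the mean of their listed regions, weighted by CpG cytosines. A region that overlapped a window counted with its full weight, also where most of it lay outside. At P1 of *Runx1*, from which the longer protein used in definitive blood cells is read, methylation was 25.5% in WT and 10.8% in Dnmt3aR878H/+ CD11b+ cells, and 30.6% and 19.2% in CD4+ cells. Most of this loss came from the upstream part of the window. The region over the start was nearly unmethylated in all groups, with 5.17% and 1.46% in CD11b+ cells, against 5.28% and 2.10% in CD4+ cells. The next region upstream had 49.9% and 22.0% in CD11b+ cells, against 56.0% and 36.4% in CD4+ cells.

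P1 of *Runx2*, which is the promoter used in osteoblasts, was methylated in both cell types. It had 66.1% in WT and 33.2% in Dnmt3aR878H/+ CD11b+ cells, the largest promoter loss of the family, and 82.7% and 65.8% in CD4+ cells. The CD11b+ value rests on 1 region of 18 CpG cytosines that did not pass the q-value. P1 of *Runx3* had 59.1% and 52.6% in CD11b+ cells, against 60.3% and 46.7% in CD4+ cells. One of its regions in CD11b+ cells, chr4:135121099-135121243, was the region with the largest gain in this gene, with 77.8% and 82.8%.

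At the P2 promoters, the listed regions of *Runx3* stood apart by their level. They had 67.5% in WT and 36.6% in Dnmt3aR878H/+ CD11b+ cells, and 73.7% and 49.9% in CD4+ cells, and they lie upstream of the start. No listed region covers the *Runx3* P2 start, so this level is that of the upstream part. The CD11b+ values rest on the DMR chr4:135150947-135151786, most of which lies outside the window, and with a window of 0.5 kb the loss was 11.0 points. In CD4+ cells, most of chr4:135151233-135151528 also lies outside the window. *Runx1* P2 had 20.8% and 27.2% in CD11b+ cells. In CD4+ cells its Dnmt3aR878H/+ mean was 22.0%, which was 8.0 points below WT. The *Runx1* means of both cell types include the downstream border region, which has only its edge inside the window. The other *Runx1* region of CD4+ cells, within the island, had 1.10% and 0.75%. With a window of 0.5 kb, the losses at *Runx1* P2 were -17.0 points (CD11b+) and 0.4 points (CD4+). *Runx2* P2 had 0.8% and 6.3% in CD11b+ cells, from 1 region of 14 CpG cytosines, and 11.2% and 4.7% in CD4+ cells. *Runx1* and *Runx2* P2 were thus the promoters with a higher mean in Dnmt3aR878H/+ CD11b+ cells. With windows of 2 kb, which take in the methylated borders, both had the lower mean in Dnmt3aR878H/+ cells, with losses of 22.0 and 5.4 points.

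The single promoter of *Cbfb* was represented by 1 region upstream of its start in each table. In CD11b+ cells it had 49.2% in WT and 41.3% in Dnmt3aR878H/+ mice, and in CD4+ cells 77.8% and 59.7%. The window has 185 CpG dinucleotides and begins at 105169674. These regions have 16 and 10 CpG cytosines in all, reach into its upstream edge and lie mostly outside it.

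**Figure D4:**
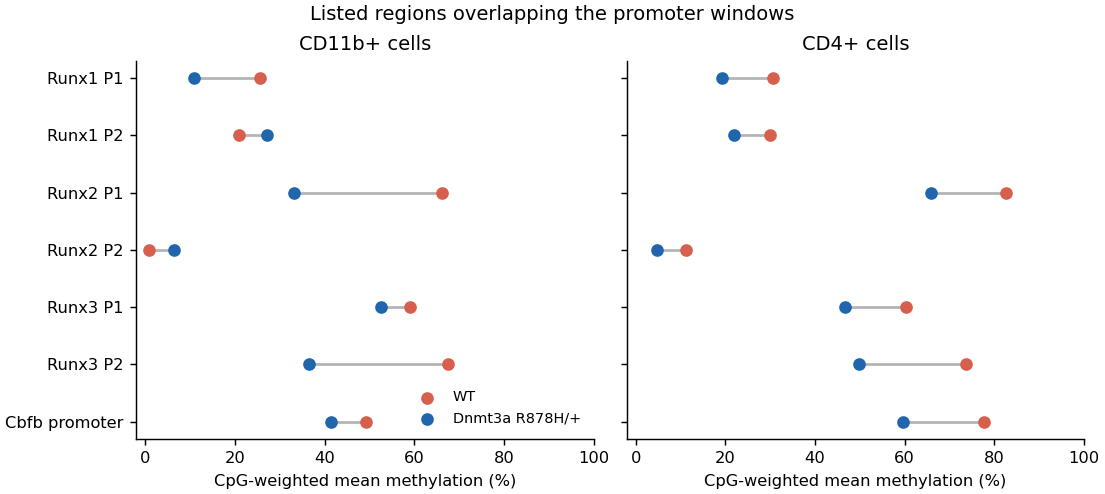
Mean methylation in percent (horizontal axis) of the listed regions that overlap each promoter window, weighted by CpG cytosines, in WT and Dnmt3aR878H/+ mice, for CD11b+ cells (left) and CD4+ cells (right). Parts of regions outside the windows are included. Lines join the genotypes of a promoter. The Dnmt3aR878H/+ mean is the lower one at each promoter except *Runx1* P2 (20.8% and 27.2%) and *Runx2* P2 (0.8% and 6.3%) in CD11b+ cells.

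Inside the genes, introns held most of the regions. In introns of *Runx1*, weighted means were 78.1% in WT and 64.3% in Dnmt3aR878H/+ CD11b+ cells (105 regions), and 82.2% and 71.7% in CD4+ cells (141 regions). *Runx2* introns had 77.5% and 65.3% in CD11b+ cells (99 regions) and 83.4% and 71.3% in CD4+ cells (142 regions). *Runx3* introns had 68.4% and 51.1% (26 regions) and 76.6% and 62.0% (39 regions), and the *Runx3* mean was lower in Dnmt3aR878H/+ cells in every one of these intronic regions in both cell types.

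Some regions showed next to no difference. In *Runx1*, chr16:92729898-92730585 had 91.6% and 91.5% in CD11b+ cells, and chr16:92625968-92626348 had 95.7% and 95.8% in CD4+ cells. In *Runx2*, chr17:44590289-44590475 had 96.5% and 96.6% in CD11b+ cells, and chr17:44592727-44592958 had 95.1% and 94.9% in CD4+ cells. The smallest differences of *Runx3* were at unmethylated regions, chr4:135129103-135129312 with 3.2% and 2.8% in CD11b+ cells and the region beside P2 given above in CD4+ cells. The largest gains in CD4+ cells were small, from 27.4% to 38.2% at chr16:92767662-92768073 in a *Runx1* intron and from 52.1% to 61.2% at chr17:44724809-44725078 in a *Runx2* exon.

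In *Cbfb*, methylation was above 85% in WT at most regions. The largest loss was in 1 intronic region of both tables, chr8:105191692-105192378 in CD11b+ cells with 59.1% in WT and 36.9% in Dnmt3aR878H/+ mice, and chr8:105191692-105192143 in CD4+ cells with 66.1% and 37.0%. With 10 CpG cytosines, neither could be called a DMR. The smallest differences were at chr8:105166164-105167197 upstream of the gene, with 94.9% and 91.6% in CD11b+ cells, and at chr8:105176144-105177104, with 96.9% and 94.7% in CD4+ cells. The higher mean in Dnmt3aR878H/+ cells was found at 2 regions of CD4+ cells, of which chr8:105199011-105199477 had the larger gain, with 94.1% and 97.4%.

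The cell types were set side by side at 122 pairs of regions that overlap by at least 50% of each, since the tables were divided into regions separately. The median loss was 14.33 points in CD11b+ cells and 12.16 points in CD4+ cells, and the loss was larger in CD4+ cells in 50 of 122 pairs. The median of the difference, CD4+ minus CD11b+, was -2.45 points in *Runx1* (52 pairs), -1.30 in *Runx2* (51 pairs), -2.71 in *Runx3* (13 pairs) and 0.94 in *Cbfb* (6 pairs). Single pairs differed by -24.0 to 16.9 points.

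WT methylation differed between the cell types by more than 20 points at 10 of these pairs, and CD4+ cells had the higher value at 7. The *Runx3* region upstream of P2 had 47.6% in CD11b+ and 78.5% in CD4+ cells of WT mice, and the *Cbfb* promoter region had 49.2% and 77.8%. In neither pair are the means of the same bases. The *Runx3* region of CD11b+ cells also takes in a second CD4+ region, with 40.8% in WT. The *Cbfb* region of CD11b+ cells ends nearer to the start, at 105170152 against 105169815. In the opposite direction, chr16:92813472-92813767 in a *Runx1* intron had 78.8% in CD11b+ cells and 40.8% in the overlapping region of CD4+ cells. At this site CD11b+ cells lost more, with 49.98% in Dnmt3aR878H/+ CD11b+ cells and 29.1% in Dnmt3aR878H/+ CD4+ cells.

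**Figure D5:**
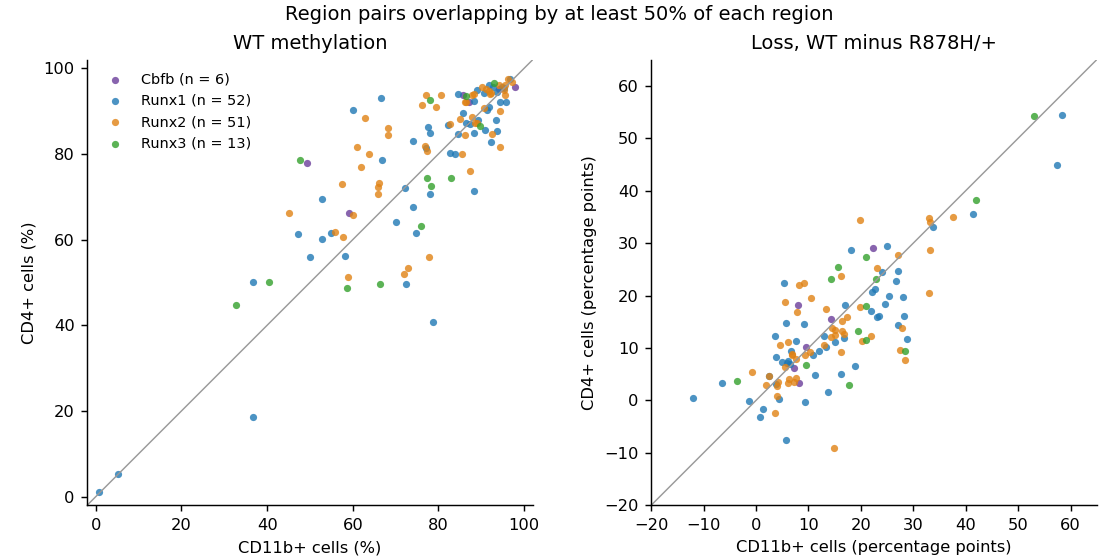
WT methylation in percent (left) and loss of methylation in percentage points (right) of 122 region pairs that overlap by at least 50% of each region, CD11b+ cells on the horizontal and CD4+ cells on the vertical axis, colored by gene. The diagonal marks equal values. In the right panel, 50 pairs lie above it.

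These cell type differences were read beside markers of the sorted populations. At starts of myeloid genes with listed regions in both tables (4 of 7 genes, *Csf1r*, *S100a8*, *Spi1* and *Fcgr3*), WT methylation was 3.3 to 43.4 points lower in CD11b+ than in CD4+ cells. At the 1 T cell gene of 7 with such regions, *Zap70*, it was 64.8% in CD11b+ and 53.9% in CD4+ cells. *Itgam*, which encodes CD11b, and *Cd4* had no listed region at their starts, so the markers used for sorting could not be read. Among B cell genes, WT methylation was 41.6% in CD11b+ and 66.4% in CD4+ cells at *Cd79a*, 23.4% and 41.0% at *Cd79b*, and 58.4% and 71.7% at *Cd22*, lower in CD11b+ cells at each. The part of other cells in the differences at the Runx genes was not tested, and a mixture of cells cannot be told apart from partial methylation in means of this kind.

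Among partners of RUNX proteins, DMRs were found at genes of corepressors. Of 18 cofactor genes, 3 had a hypomethylated DMR within 5 kb of the body in CD11b+ cells (16.7%, against 8.90% of 17454 protein-coding genes), and 5 in CD4+ cells (27.8%, against 11.8% of 18434). In the gene body alone the counts were 1 and 3, and with a difference above 30 points it was 1 in CD11b+ cells. *Tle4*, *Hdac3* and *Cbfa2t3* had one in both cell types. *Tle4*, a Groucho-type corepressor that binds the C-terminal motif of RUNX proteins, had 73.7% in WT and 35.1% in Dnmt3aR878H/+ CD11b+ cells at its DMR with the largest loss, and 88.9% and 58.8% in CD4+ cells. *Hdac3*, a histone deacetylase, had 48.6% and 21.3% in CD11b+ cells, against 72.1% and 39.9% in CD4+ cells. *Cbfa2t3*, a relative of the corepressor fused to RUNX1 in leukemia, had 42.7% and 13.9% in CD11b+ cells, against 60.3% and 25.9% in CD4+ cells. *Tle1* and *Tle3* were the other cofactors with a DMR, in CD4+ cells.

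Of genes known as direct RUNX targets in blood cells, 1 of 14 with listed regions large enough for a DMR had one in CD11b+ cells (7.14%, against 8.90% of all genes) and 4 of 17 in CD4+ cells (23.5%, against 11.8%). *Csf1r*, which encodes the M-CSF receptor of monocytes and osteoclast precursors, had one in both, with 43.0% in WT and 8.9% in Dnmt3aR878H/+ CD11b+ cells and 78.6% and 25.7% in CD4+ cells. In CD4+ cells the others were *Spi1*, which encodes the myeloid factor PU.1, *Il4*, the cytokine of T helper 2 cells, and *Itgae*, an integrin of tissue-resident lymphocytes. Genes with many listed regions have more chances of a DMR, and neither list was matched for it.

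Over the 4 weighted means of a gene, 2 per cell type, the nearest of 8042 genes to *Runx1* were *Nceh1* and *Txnrd1*, at Euclidean distances of 1.05 and 1.10 points. *Retreg1* and *Fabp12* were nearest to *Runx2* (1.13 and 1.26), *Wsb2* and *Gm20532* to *Runx3* (1.87 and 1.89), and *Epb41l4a* and *Mia3* to *Cbfb* (0.498 and 0.683). *Runx3* had weighted means of 70.2% in WT and 51.4% in Dnmt3aR878H/+ CD11b+ cells and of 75.8% and 59.4% in CD4+ cells.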

How the data were processed

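WGBS was available for CD11b+ and CD4+ spleen cells, each from 4 WT and 4 Dnmt3aR878H/+ mice. The authors used BISCUIT for mapping to mm10 and metilene to find regions. Versions, metilene parameters and a coverage minimum are not given in the sources used here. The 2 deposited tables list regions with a methylation mean per group in percent, a count of CpGs, a q-value, and the authors' differences and p-values, of which only the q-value was used, as a threshold. The counts were found to be CpG cytosines on both strands. There were 0 columns of per-sample values, so the depth behind each mean and its precision are unknown, apart from the nominal coverage in the study's methods.

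Regions were assigned to genes by an overlap of at least 1 bp with the body and 5 kb on either side (GENCODE M21). Coordinates count from 1. Loss is the WT mean minus the Dnmt3aR878H/+ mean. DMRs had more than 10 CpG cytosines, a difference above 20 points and a q-value below 0.05. P1 is the most upstream group of protein-coding starts and P2 the downstream group with the most CpGs within 1 kb. Named are the 4 genes, their promoters and, except at 1 site, every DMR and the regions with the largest loss, the largest gain and the smallest difference per gene and cell type, then the 2 nearest genes by weighted means among genes with at least 10 regions per table, and listed cofactors and targets with a DMR in both cell types. The values of that site and of 1 marker gene are not reported here. Any other region or gene named was chosen after its values were seen. The members and lists were chosen with earlier results of these data known. Alternatives varied the thresholds, windows, weights and overlap. Scripts were tested on simulated data and used python 3.11.15, numpy 2.4.6, pandas 2.3.3, pysam 0.24.0 and matplotlib 3.10.9.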

Additional observations from a re-analysis of the deposited data

How the results depend on the processing

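No paired analysis was possible because the tables hold group means and no value per mouse, and for the same reason no mouse could be left out in turn. Of 168 alternative values, 137 differed from the reported ones by less than 1.5 times (counts) or 5 points (levels and shares). The cause of the other changes was not tested. Without a q-value threshold, the counts of DMRs moved to 14 in *Runx1* in both cell types, 7 and 16 in *Runx2*, and 9 and 5 in *Runx3* (CD11b+ and CD4+ cells). With a difference above 10 points, *Runx2* had 1 DMR in CD11b+ cells. With more than 20 CpG cytosines, *Runx2* had 2 in CD4+ cells and *Runx3* had 3 in CD11b+ cells. With no q-value threshold, 11 and 15 cofactors and 7 and 8 targets had one. In the gene body alone, 1 and 3 cofactors had one, and 1 in CD11b+ cells with a difference above 30 points.

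With promoter windows of 2 kb, the losses at *Runx1* P2 and *Runx2* P2 in CD11b+ cells changed direction, to 22.0 and 5.4 points, and the others that moved were *Runx1* P2 (28.5), *Runx2* P2 (13.3) and *Runx3* P2 (17.3) in CD4+ cells and *Runx3* P2 (25.2) in CD11b+ cells. With windows of 0.5 kb, the losses were 3.7 and 3.2 points at *Runx1* P1, -17.0 and 0.4 at *Runx1* P2, 11.0 at *Runx3* P2 in CD11b+ cells and 7.8 at *Runx3* P1 in CD4+ cells. With each region counted once, *Runx3* P2 in CD11b+ cells lost 23.4 points. The share of *Cbfb* regions that were lower in Dnmt3aR878H/+ CD4+ cells was 66.7% with more than 10 CpG cytosines and 80.0% in the gene body alone.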
